A study of Mus musculus with 7 samples.

Results

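The late step of the doxycycline time-course, from day 6 to day 9 of OKSM induction, was examined by comparing the 44855 statistically significant ATAC-seq peaks of the day 6 library with the 33007 peaks of the day 9 library. These 77862 peaks are part of the 293147 peaks of the 7 libraries in the series. A day 6 peak with no overlapping day 9 peak (1 bp) was called lost, a day 6 peak with an overlapping day 9 peak was called kept, and a day 9 peak with no overlapping day 6 peak was called gained. Both libraries came from mouse embryonic fibroblasts (MEFs) that carry a tetO-controlled cassette of Pou5f1, Klf4, Sox2 and Myc in the Col1a1 locus, on B6;129S4, crossed with B6.Cg mice that carry the rtTA*M2 transactivator in ROSA26, and doxycycline was present at 2 µg/mL from day 0. The day 0 library is from the same MEFs without doxycycline, the libraries of days 1, 2 and 3 are from MEFs treated in the same way, and the ESC library is from untreated Bruce-4 embryonic stem cells. The genotype entered for the Bruce-4 cells is that of the MEFs. The labels give MEF medium for reprogramming, whereas the methods of the study move the cultures to ESC medium when the first colonies appear, between the 2 days compared, so time and medium cannot be told apart. A culture can hold cells at different stages of reprogramming, and a peak is an average over them. Each time-point is 1 library, so no difference between days could be tested against the spread of replicates. The 95% intervals given here are exact binomial (Clopper-Pearson) and cover counting error only.

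ATAC-seq marks DNA that the Tn5 transposase can reach, which in most cells means active promoters, enhancers and CTCF-bound sites. Oct4, Sox2, Klf4 and c-Myc turn fibroblasts into pluripotent cells over a period of weeks, during which fibroblast enhancers, many of which carry AP-1 sites for Fos and Jun dimers, close, and enhancers of pluripotency genes open. In ESCs, Oct4 and Sox2 bind enhancers through the octamer, the Sox site and a composite of both. Early and late intermediates differ in how far the pluripotency network has been engaged.

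The day 9 list was shorter than the day 6 list and covered 14.1 Mb of the genome, against 19.5 Mb on day 6, although the authors brought all libraries to the same read depth before they called peaks. Peak widths were alike, with medians of 391 bp (day 6) and 389 bp (day 9). The files hold no score or read count, so the reads behind a peak are unknown, and fewer regions that are open and a library with fewer reads in peaks cannot be told apart. Every count was therefore repeated with the 33007 widest day 6 peaks against the 33007 day 9 peaks. The labels were checked against the promoters of fixed markers. A peak lay within 1000 bp of the transcription start site (TSS) of 4 of the 8 fibroblast markers on day 6 (Col1a1, Col1a2, Twist1 and Twist2) and of 4 on day 9 (Col1a1, Col1a2, Thy1 and Twist1), against 6 on day 0 and 1 in ESCs. Of the 7 ESC markers, the Sox2 promoter alone had a peak on day 6, the Pou5f1 promoter alone on day 9 and the Zfp42 promoter alone in the ESC library, so Nanog, Esrrb, Dppa5a and Tdgf1 had no promoter peak in any of these 3 libraries. The fibroblast markers had 42 assigned peaks in the day 6 library and 31 in the day 9 library, against 73 before doxycycline and 8 in ESCs. The assigned peaks of the 7 ESC markers also fell, from 9 on day 6 to 6 on day 9, against 17 on day 0 and 12 in ESCs. This count was higher in untreated MEFs than in ESCs, so it does not track the ESC state. The assigned peaks of 5 epithelial markers fell from 19 to 13, against 12 on day 0 and 13 in ESCs. The fall was therefore not particular to the fibroblast markers.

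Regions that appeared by day 9 and regions that had disappeared by then are given here as sequence, each as the 200 bp at the centre of the peak on the plus strand of mm10 (letters from the RefSeq copy of GRCm38.p6), with matches to the 20 motifs searched in capitals on either strand. The first region was gained on day 9, was closed in MEFs at every earlier time-point and was open in ESCs. The Grhl2 region (chr15:37192924-37193123) is intergenic, 40012 bp from the TSS of Grhl2, which encodes an epithelial transcription factor, and its 379-bp peak holds 1 AP-1 match.
Grhl2: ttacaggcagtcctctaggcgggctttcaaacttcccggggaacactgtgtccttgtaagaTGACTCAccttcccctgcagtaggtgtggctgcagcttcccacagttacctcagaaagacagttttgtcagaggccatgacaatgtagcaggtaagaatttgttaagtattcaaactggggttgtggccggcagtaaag

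The widest peaks gained near listed genes without an ESC peak lay close to promoters. The Elf3 region (chr1:135258995-135259194, centre of a 625-bp peak) is 527 bp from the TSS of Elf3, an epithelial Ets factor gene, and was open on days 0, 3 and 9 but not on day 6. The Nodal region (chr10:61416771-61416970, centre of a 511-bp peak) is 1101 bp from the TSS of Nodal, a TGF-beta family ligand of the early embryo, was open on day 9 alone, and holds none of the motifs.
Elf3: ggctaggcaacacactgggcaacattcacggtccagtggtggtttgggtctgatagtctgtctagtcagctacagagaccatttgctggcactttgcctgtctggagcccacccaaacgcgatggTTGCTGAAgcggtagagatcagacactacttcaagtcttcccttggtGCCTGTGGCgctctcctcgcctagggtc
Nodal: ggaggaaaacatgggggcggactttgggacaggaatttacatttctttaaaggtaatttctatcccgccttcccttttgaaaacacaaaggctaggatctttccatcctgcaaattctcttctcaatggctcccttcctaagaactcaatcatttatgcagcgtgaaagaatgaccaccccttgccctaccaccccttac

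Among the widest lost peaks near listed genes was one that had a peak in all 5 MEF libraries from day 0 to day 6 and none on day 9 or in ESCs. The region assigned to Thy1 (chr9:43945319-43945518) is intergenic, 97965 bp from the TSS of this fibroblast surface marker, and its 620-bp peak holds 2 AP-1 matches in the central 200 bp.
Thy1: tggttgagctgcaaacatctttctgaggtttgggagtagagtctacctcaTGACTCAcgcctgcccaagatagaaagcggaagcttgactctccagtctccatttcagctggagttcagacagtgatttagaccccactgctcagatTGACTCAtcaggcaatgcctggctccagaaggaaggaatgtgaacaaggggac

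Peaks that were absent on day 0, open on day 6 and open in ESCs, yet not found on day 9, are shown by a 342-bp peak in an intron of Tead1 (chr7:112710797-112710996) and a 322-bp peak 1330 bp from the TSS of the epithelial splicing factor gene Esrp1 (chr4:11388013-11388212). The Tead1 region was open on day 6 alone among the MEF libraries, and the Esrp1 region on days 2, 3 and 6. A separate peak within 1000 bp of the Esrp1 TSS was gained on day 9.
Tead1: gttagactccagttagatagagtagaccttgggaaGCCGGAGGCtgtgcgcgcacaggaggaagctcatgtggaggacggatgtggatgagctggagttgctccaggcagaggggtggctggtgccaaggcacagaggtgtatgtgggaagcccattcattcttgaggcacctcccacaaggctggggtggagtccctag
Esrp1: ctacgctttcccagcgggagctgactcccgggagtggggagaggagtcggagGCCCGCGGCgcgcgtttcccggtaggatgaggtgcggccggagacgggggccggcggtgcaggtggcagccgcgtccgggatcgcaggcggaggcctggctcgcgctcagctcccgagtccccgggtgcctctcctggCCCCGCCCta

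Of the 44855 day 6 peaks, 26824 were kept on day 9 (59.8%, 95% interval 59.3 to 60.3) and 18031 were lost (40.2%). Of the 33007 day 9 peaks, 5796 were gained (17.6%), and the remaining 27211 (82.4%) overlapped a day 6 peak. With the same number of widest peaks on both days, 9251 day 6 peaks were lost (28.0%) and 8238 day 9 peaks were gained (25.0%). The excess of losses over gains was 12235 peaks with all peaks and 1013 at equal numbers. This excess follows by construction from the list lengths and from peaks that overlap several peaks of the other day. The near balance at equal numbers is therefore not a result about the regions. The gained class at equal numbers includes day 9 peaks over the narrower day 6 peaks that had been left out. Requiring that an overlap cover 50% of both peaks left 44.1% of day 6 peaks kept, and counting a day 9 peak within 500 bp as overlapping brought the share to 65.2%.

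**Figure D1:**
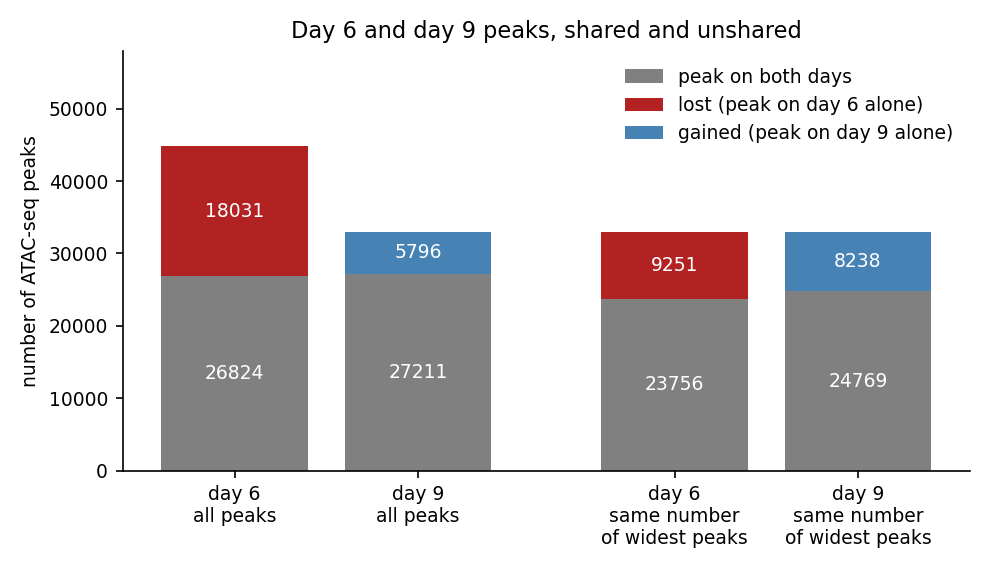
Number of ATAC-seq peaks (vertical axis) on day 6 and day 9, split into peaks found on both days (grey), lost peaks (red) and gained peaks (blue), for all peaks (left pair) and for the 33007 widest peaks of each day (right pair). Losses of 18031 against gains of 5796 became 9251 against 8238 at equal numbers, a near balance that follows from the equal list lengths.

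The lost and gained peaks resembled each other and differed from the kept peaks. The median width was 228 bp for lost peaks and 211 bp for gained peaks, against 560 bp for kept peaks, and the smallest width in the files, 200 bp, was held by 28.7% of lost, 39.9% of gained and 4.89% of kept peaks. TSS-proximal peaks, within 1000 bp of the TSS of a protein-coding gene, made up 10.2% of lost peaks (9.77 to 10.7), 9.87% of gained peaks (9.11 to 10.7) and 36.4% of kept peaks (35.8 to 37.0). The median distance to the nearest TSS was 30946 bp for lost, 32951 bp for gained and 11238 bp for kept peaks. The peak centre lay in an intron for 45.0% of lost and 43.7% of gained peaks, against 33.7% of kept peaks, whereas the intergenic share was nearly the same in the 3 classes (46.0%, 46.7% and 45.7%). Kept peaks were richer in GC, with a median of 54.0% against 48.0% in both other classes, and richer in CpG, with a median observed-to-expected ratio of 0.405 against 0.222 for lost and 0.224 for gained peaks. Chromosome X held 2.29% of lost, 2.33% of gained and 2.29% of kept peaks.

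Retention varied with width. Of the day 6 peaks under 300 bp wide, 30.6% were kept on day 9, and 93.3% of those of 500 bp or more. TSS-proximal peaks were kept more often than distal peaks (84.1% against 51.3%), and the difference held within each width range: 46.0% against 28.5% below 300 bp, 64.5% against 52.6% from 300 to under 500 bp and 97.9% against 89.5% at 500 bp or more. Kept regions were also narrower on day 9. Among the 23496 kept regions with 1 peak on each day, the median width went from 575 to 500 bp, and 29.9% were wider on day 9. The narrowing was larger at distal regions (513 to 408 bp) than at proximal regions (663 to 611 bp). It was also larger at distal regions that were open on day 0 and not in ESCs (504 to 361 bp) than at distal regions open in both (618 to 572 bp). Distal regions open in neither went from 446 to 338 bp, and those open in ESCs and not on day 0 from 522 to 455 bp. In this order the median log2 ratios of day 9 to day 6 width were -0.19, -0.12, -0.15 and -0.13. As with the peak number, a narrower region and a library with fewer reads in peaks cannot be told apart.

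Most peaks of the late step had been seen in another library. Of the lost peaks, 43.4% had a peak on day 0, 49.0% on day 3 and 9.90% in ESCs (9.47 to 10.3), and 76.1% had one in at least 1 of the other 5 libraries. Of the gained peaks, 33.1% had a peak on day 0, 40.6% on day 3 and 12.4% in ESCs (11.6 to 13.3), and 68.7% had one in at least 1 of the other 5. The remaining gained peaks were found on day 9 alone. Of the kept peaks, 71.9% had a peak on day 0, 89.8% on day 3 and 46.7% in ESCs. Gained peaks that were open in ESCs and closed on day 0, the pattern of an ESC region opened under doxycycline, numbered 500 (8.63% of gained peaks, 7.92 to 9.38), and lost peaks of this pattern numbered 895 (4.96% of lost peaks, 4.65 to 5.29). Among kept peaks the share was 5.48% (5.21 to 5.76), near that of lost peaks. At equal numbers the order of the counts turned, with 650 gained (7.89%, 7.32 to 8.49) and 506 lost (5.47%, 5.01 to 5.95), while the share remained higher in gained peaks. Regions open on day 0 and closed in ESCs made up 38.4% of lost and 29.3% of gained peaks. At equal numbers the ESC share was 12.0% for lost and 13.4% for gained peaks, and the day 0 share was 47.7% and 39.3%. Lost peaks were wider than gained peaks (median 228 against 211 bp, and 313 against 216 bp at equal numbers). These shares are therefore not matched for width. The day 0 share was 57.5% and 49.4% with peaks of at least 300 bp, but 48.9% and 49.9% with an overlap of 50% of both peaks.

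**Figure D2:**
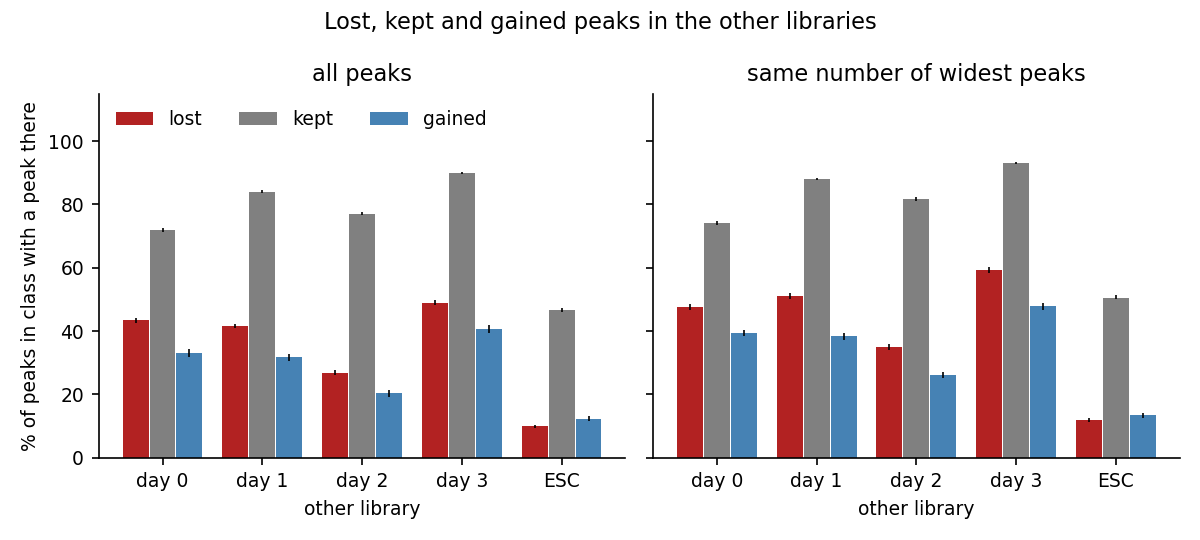
Percent of lost (red), kept (grey) and gained (blue) peaks with an overlapping peak on days 0, 1, 2 and 3 and in ESCs, for all peaks (left) and the same number of widest peaks (right). Bars show 95% exact binomial intervals. Kept peaks are highest in every library, and gained peaks lie below lost peaks on days 0 to 3 and above them in ESCs. The classes are not matched for width.

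The opposite view starts from the ESC peaks. Of the 27074 ESC peaks, 54.2% overlapped a day 6 peak and 50.1% a day 9 peak. With the same number of widest peaks the share was 50.7% on day 6 (50.1 to 51.3) and 50.1% on day 9 (49.5 to 50.7), and these intervals overlap. Among the 13808 ESC peaks without a day 0 peak, 17.4% were open on day 6 and 14.3% on day 9, and at equal numbers 13.9% (13.3 to 14.5) and 14.3% (13.7 to 14.9). A change in how many ESC regions of this kind were open was not detectable with these lists. The regions were not all the same, since with all peaks 891 of them were open on day 6 and not on day 9 and 465 on day 9 and not on day 6. At equal numbers these counts were 575 and 630, so the direction turned with the length of the list. With all peaks, of those closed on day 6, 4.07% had a peak on day 9 (3.72 to 4.45), and of those open on day 6, 62.8% still had one (60.8 to 64.8). The fibroblast side changed more. Of the 48396 day 0 peaks without an ESC peak, 30.6% were open on day 6 and 20.0% on day 9. At equal numbers these shares were 23.2% (22.8 to 23.6) and 20.0% (19.7 to 20.4). The 13266 ESC peaks that also had a day 0 peak fell as well, from 92.5% on day 6 to 87.3% on day 9. At equal numbers they went from 89.1% (88.5 to 89.6) to 87.3% (86.7 to 87.9), with intervals apart.

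Retention of a day 6 peak differed with its history. Day 6 peaks found both on day 0 and in ESCs were kept in 92.5% of cases, those found in ESCs and not on day 0 in 62.1%, those found on day 0 and not in ESCs in 54.3% and those found in neither in 39.5%. The 4 groups differ in width, so they were compared within width ranges. From 300 to under 500 bp the shares kept were 75.3%, 61.4% (57.3 to 65.4), 53.1% (51.4 to 54.8) and 48.3% in the same order. At 500 bp or more they were 98.4%, 94.0% (92.1 to 95.5), 87.1% (86.0 to 88.0) and 85.0%. Below 300 bp the ESC group (36.9%, 33.9 to 40.0) and the day 0 group (34.4%, 33.3 to 35.5) had overlapping intervals, and the group found in neither had 23.2%. Among distal peaks the order was the same, with 86.0%, 64.2%, 52.3% and 40.0% kept. Proximal peaks found in ESCs and not on day 0, of which there were 266, were kept in 46.2% of cases (40.1 to 52.4), below the proximal peaks found on day 0 and not in ESCs (65.8%, 63.8 to 67.8).

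**Figure D3:**
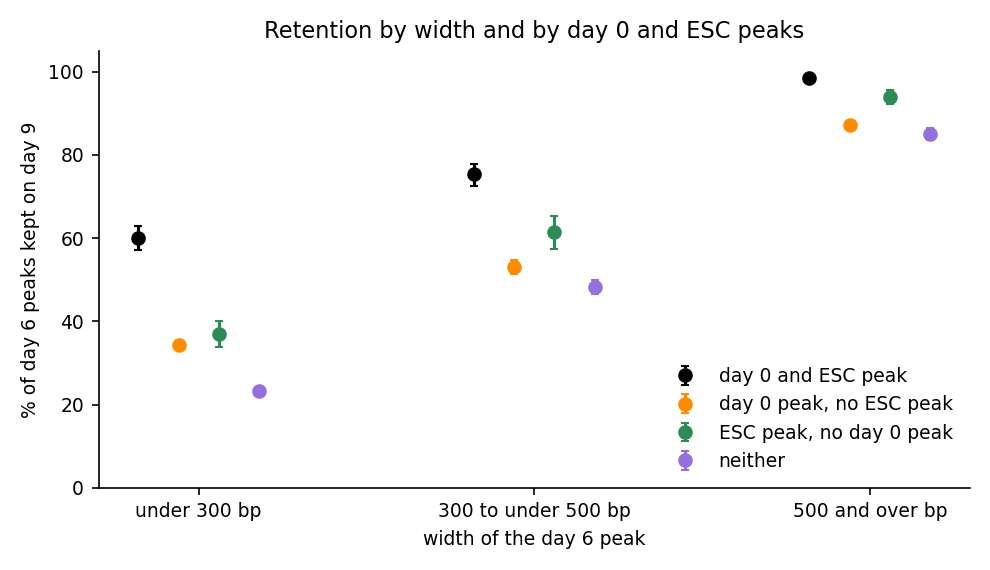
Percent of day 6 peaks kept on day 9 (vertical axis) by the width of the day 6 peak in bp (horizontal axis) and by whether the region had a peak on day 0, in ESCs, in both or in neither. Points are shares and bars 95% exact binomial intervals. Retention is higher in wider peaks in each group, from 23.2% for the narrowest peaks found in neither to 98.4% for the widest found in both.

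The central 200 bp of each peak were searched on both strands for 20 fixed motifs. The AP-1 motif (TGANTCA) was found in 11.6% of lost peaks (11.2 to 12.1), 10.8% of kept peaks (10.4 to 11.2) and 8.65% of gained peaks (7.94 to 9.41), and in 16.0% of the merged regions of all 7 libraries. Among the 20 motifs, AP-1 alone had intervals for lost and gained peaks, over all widths, that did not overlap. At equal numbers the shares were 15.1%, 11.3% and 8.74%, and the lost peaks were then wider than the gained peaks (median 313 against 216 bp). Among distal peaks under 300 bp the AP-1 intervals overlapped, with 9.28% of lost (8.76 to 9.82) and 8.38% of gained peaks (7.57 to 9.25). With peaks of at least 300 bp on both days, the gained share minus the lost share was -6.02 percentage points. The Runx motif (TGTGGTT), bound by factors of mesenchymal lineages, was found in 5.17%, 4.05% and 4.30% of lost, kept and gained peaks. Motifs of promoters marked the kept class: the GC box (GGGCGGGG) of Sp and Klf factors was found in 13.0% of kept peaks against 3.20% of lost and 3.64% of gained peaks, the Ets motif (CCGGAAGT) in 2.77% against 0.344% and 0.190%, the NF-Y motif (AGCCAAT) in 5.49% against 2.62% and 2.71%, and the E-box (CACGTG) in 5.09% against 2.98% and 2.63%. The octamer (ATGCAAAT) of Oct4 was found in 2.10% of lost (1.89 to 2.32), 2.69% of kept (2.50 to 2.89) and 2.16% of gained peaks (1.80 to 2.57), and the Sox motif (AACAATG) in 3.53%, 3.08% and 3.56%. The Klf motif (CCACACCC) was found in 3.27% of lost and 3.40% of gained peaks. For none of the octamer, Sox and Klf motifs was the share higher in gained than in lost peaks by more than counting error, and at equal numbers the octamer was found in 2.78% of lost peaks (2.46 to 3.14) and 2.03% of gained peaks (1.74 to 2.36). The Oct4-Sox2 composite, whose letters can overlap a Sox match, was found in 17 lost, 41 kept and 5 gained peaks.

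For AP-1, the direction of the comparison depended on width. Distal day 6 peaks with an AP-1 match were wider than those without (median 456 against 282 bp), and over all widths they were kept more often (56.6%, 55.2 to 58.0, against 50.4%, 49.8 to 51.0). Within each width range they were kept less often. The share kept was 46.1% with the motif (43.3 to 49.0) against 54.0% without it (52.8 to 55.3) from 300 to under 500 bp, and 86.6% (85.0 to 88.0) against 90.2% (89.5 to 90.9) at 500 bp or more. Below 300 bp it was 26.1% (23.9 to 28.5) against 28.7% (28.0 to 29.5), where the intervals overlap. The CArG box, the site of Srf, was found in few peaks and lay on the same side from 300 to under 500 bp (41.0%, 31.5 to 51.0, against 52.8%, 51.7 to 54.0). The AP-1 regions that were kept narrowed more than distal regions at large, with a median log2 ratio of day 9 to day 6 width of -0.24 against -0.15, but regions with the CTCF motif, whose binding differs little between cell types, also stood at -0.24.

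Distal day 6 peaks with several other motifs were kept more often than those without them in some width ranges. Distal day 6 peaks with an octamer were kept in 59.2% of cases (53.2 to 64.9) against 52.4% without it (51.2 to 53.6) from 300 to under 500 bp, where the intervals overlap, and in 93.5% (90.6 to 95.7) against 89.3% (88.7 to 89.9) at 500 bp or more, while below 300 bp the shares were 27.2% and 28.5%. At 500 bp or more the GC box (94.1%, 92.0 to 95.8, against 89.1%, 88.5 to 89.8) and the NF-Y motif (94.1%, 91.2 to 96.2, against 89.3%, 88.6 to 89.9) had the same direction. From 300 to under 500 bp the Tead motif (58.2%, 53.8 to 62.6, against 52.2%, 51.0 to 53.4) and the Tfap2 motif (58.7%, 54.5 to 62.9, against 52.1%, 50.9 to 53.4) had it with intervals apart, so the direction was not particular to the octamer. The Klf and Sox motifs lay on the same side from 300 to under 500 bp, with 57.1% (52.1 to 61.9) and 57.2% (51.9 to 62.4) kept against 52.4%, where the intervals overlap. The CTCF motif had 50.9% kept with it and 52.7% without it in that range, a difference within counting error. The groups also differ in history: 66.9% of distal day 6 peaks with an AP-1 match had a peak on day 0, against 46.8% without, and 25.5% of those with an octamer, against 50.4% without. The ESC share was 15.0% for peaks with AP-1 and 17.6% for peaks with an octamer. How much of each difference in retention went with history was not tested.

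**Figure D4:**
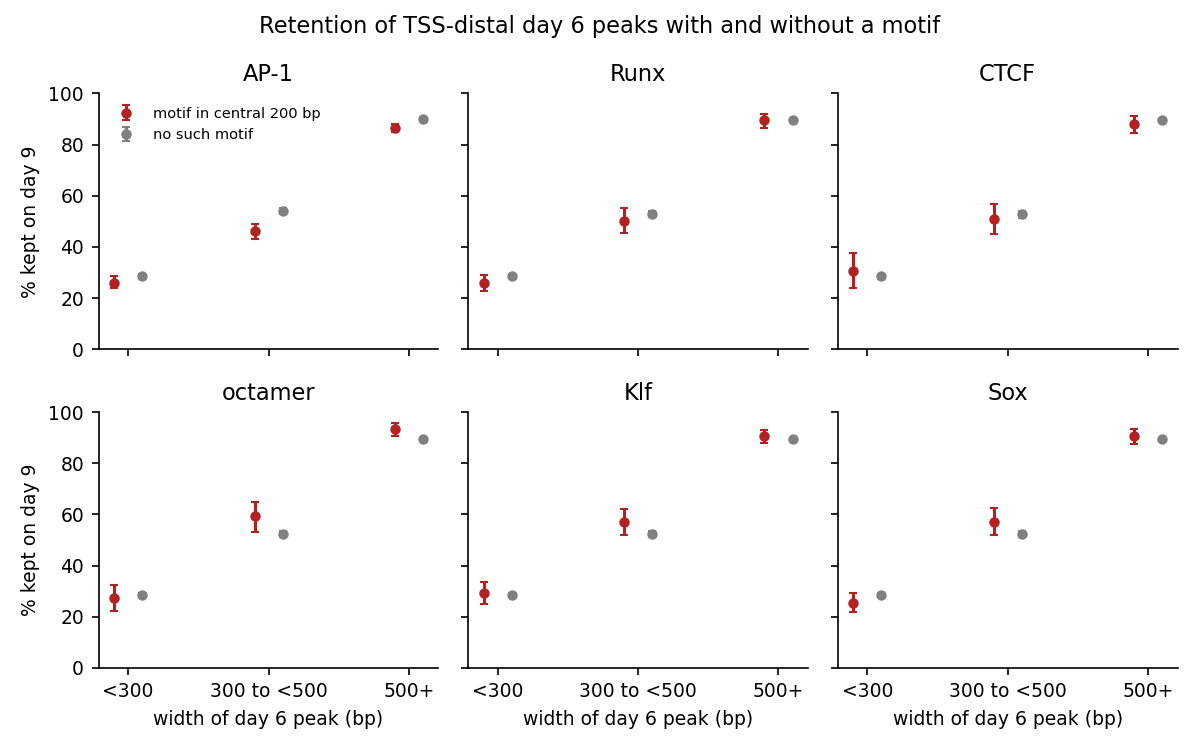
Percent of TSS-distal day 6 peaks kept on day 9 (vertical axis) by width in bp (horizontal axis), with (red) and without (grey) a match to each of 6 motifs in the central 200 bp. Bars show 95% exact binomial intervals. AP-1 peaks lie below the others in each width range (with overlapping intervals below 300 bp), octamer peaks lie above them from 300 bp (with overlapping intervals from 300 to under 500 bp), and CTCF peaks lie within counting error of peaks without the motif.

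Promoters changed less than distal regions. Of the 21924 protein-coding genes, 11522 had a peak within 1000 bp of the TSS on day 6 and 10687 on day 9. The promoters of 10391 genes were open on both days (90.2% of those open on day 6), 1131 were open on day 6 alone and 296 on day 9 alone. The step from day 3 to day 6 kept 95.8% of open promoters, closed 472 and opened 728. The day 9 list is shorter than the day 6 list, so the larger number of closed promoters was not separated from the number of peaks called. Peaks were assigned to the nearest TSS within 100 kb to look at genes. Of the 14848 genes with a day 6 peak, 8186 had lost at least 1 (55.1%), and 3644 of 21924 genes (16.6%) had gained at least 1. The fixed lists hold 131 genes, 120 of them with a day 6 peak, of which 84 had lost at least 1 peak (70.0%), and 40 of the 131 had gained at least 1 (30.5%). Both shares lie above those over all genes, and the listed genes also had more day 6 peaks, 3.57 per gene with a peak against 2.48. These genes had 428 day 6 peaks and kept 255 (59.6%, 54.8 to 64.3), close to the 61.8% kept over all genes.

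Of the endogenous loci of the 4 induced factors, which in ESCs maintain themselves without the transgene, Klf4 kept its 3 day 6 peaks, including a 658-bp promoter peak that was also open in ESCs and at every MEF time-point and a 724-bp peak 17501 bp from the TSS. Pou5f1 had no peak on day 6 and 1 peak on day 9, 492 bp wide and 241 bp from the TSS, which was also present on day 0 and absent in ESCs. Sox2 had 1 day 6 peak, 214 bp wide and 302 bp from the TSS, which was lost. Myc had 8 day 6 peaks, of which 6 were lost, among them the 504-bp promoter peak, and 1 peak was gained, so that it had 3 on day 9 and 3 in ESCs. Together the 4 genes kept 5 of 12 peaks. The cassette carries coding sequence of these genes, so reads from its exons and from the endogenous exons cannot be told apart.

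The pluripotency factors kept 26 of 41 day 6 peaks (63.4%, 46.9 to 77.9) and gained 5. Nanog, a core pluripotency factor, had 5 day 6 peaks and kept 4, and the widest of them, 877 bp wide and 4677 bp from the TSS, was open in all 7 libraries. Klf2 kept its 3 peaks, including the promoter peak. Klf5 kept its 823-bp promoter peak and lost 3 narrow peaks 26234 to 57071 bp away, of which 2 were ESC peaks. Esrrb, an orphan receptor of naive ESCs, lost 2 of 3 peaks, and Sall4 lost the only peak it had. Zfp42 and Nr0b1, both genes with ESC peaks, had none on day 6 or day 9. At equal numbers the list kept 75.0%, against 73.9% over all genes.

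The pluripotency and germline genes kept 5 of 16 day 6 peaks (31.2%, 11.0 to 58.7), the lowest share of the 15 lists, and gained 3. At equal numbers they kept 4 of 11 (36.4%). Dppa3, a maternal and germline gene, lost all 3 of its peaks, and the one 36571 bp from its TSS was an ESC peak. Utf1, a chromatin-associated factor of ESCs, lost all 4 and gained 1 at its promoter. Lefty2 lost a 506-bp peak that was open in MEFs from day 0 to day 6 and in ESCs, and kept 1. Nodal lost 1 peak and gained the one printed above, and Tdgf1, the co-receptor of Nodal, gained a 200-bp peak. Gdf3 and Fgf4 each kept 1 peak. Dppa2, Dppa4, Dppa5a and Dnmt3l had no peak on either day.

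The epithelial genes, which are switched on early in reprogramming in the mesenchymal-to-epithelial transition, kept 21 of 37 day 6 peaks (56.8%, 39.5 to 72.9) and gained 4. Cdh1, which encodes E-cadherin, kept its 3 peaks, but none lay at the promoter, where the ESC library had a peak. Ehf kept 5 of 6 peaks and Epcam 3 of 5. Grhl2 had 8 peaks on day 6 and 4 on day 9, with 5 lost and 1 gained. Ocln lost both of its peaks, Ovol1 its only one, and Krt8 and Krt19 each lost a promoter peak (448 and 301 bp wide). Cldn7 gained a 445-bp peak that was seen on day 9 alone, and Elf3 and Esrp1 each gained a promoter peak. The mesenchymal factors and markers kept 23 of 42 (54.8%, 38.7 to 70.2) and gained 6. Twist2 lost 5 of 10 peaks, 2 of them at the promoter, and had 2 peaks in ESCs. Snai1 lost 4 of 7 and Zeb2, a repressor of Cdh1, lost 3 of 4 including its 515-bp promoter peak. Twist1 and Vim kept all of theirs. Zeb1 lost its only day 6 peak and gained 1 at the promoter. The epithelial and mesenchymal shares have overlapping intervals, and at equal numbers they were 61.8% and 57.9%.

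The fibroblast matrix genes, which encode collagens and other secreted fibre proteins, kept 30 of 61 day 6 peaks (49.2%, 36.1 to 62.3) and gained 9. At equal numbers they kept 64.3% (48.0 to 78.4), an interval that contains the 73.9% over all genes. The counts of peaks on day 6 and day 9 were 6 and 3 for Col1a1, 10 and 7 for Col1a2, 9 and 4 for Col5a1, 7 and 3 for Col6a2 and 8 and 3 for Col6a3, and none of these 5 genes had more than 2 peaks in ESCs. Postn, Fbn1 and Lum each lost the only peak they had on day 6, and Dcn kept both of its peaks. In this list, 2 genes gained more peaks than they lost. Col5a2 went from 1 to 2 peaks, and Col3a1 from 0 to 2, of which the wider, 356 bp, had been open on days 0, 1 and 2. The cassette sits in the Col1a1 locus, which bears on the Col1a1 count. The lost peaks of Thy1, Col1a1, Col6a1, Col6a2 and Col6a3 include peaks with an AP-1 match, 620, 445, 430, 535 and 398 bp wide. The AP-1 share among all lost and all kept peaks of this list is not given here. Over all distal peaks from 300 to under 500 bp, the motif was found in 20.0% of lost and 15.4% of kept peaks. At 500 bp or more the shares were 25.8% and 19.6%, so wide peaks of both classes often hold it.

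The contractile genes kept more of their peaks than any other list with all peaks and at equal numbers, 34 of 43 (79.1%, 64.0 to 90.0) and 32 of 34 (94.1%), although the intervals of most lists overlap. Acta2, Tagln, Cnn1, Myl9 and Srf, which encode smooth-muscle-type actin, actin-binding proteins, a myosin light chain and the factor that drives them, lost no peak. Acta2 and Tagln had promoter peaks on day 0, day 3, day 6 and day 9 and no peak assigned in ESCs. Tpm1 kept 7 of 8 peaks and Ccn1 6 of 8, whereas Tpm2 lost both of its day 6 peaks, one of them at the promoter. The AP-1 genes kept 33 of 48 (68.8%, 53.7 to 81.3) and gained 2. Fos kept all 6 of its peaks, Fosb all 5, Junb all 3 and Jund its only one, and Jun kept 8 of 11. Fosl1, a Fos-related gene, lost its only peak, the 495-bp promoter peak that was open from day 0 to day 6. Fosl2 lost 3 of 7, Atf3 3 of 5 and Batf 3 of 4. The genes for Runx, Tead and Cebp factors kept 22 of 42 (52.4%, 36.4 to 68.0), and Tead4 alone lost 8 of 11, with a promoter peak on both days. At equal numbers the list kept 20 of 27 (74.1%), close to the 73.9% over all genes, and Tead4 lost 1 of 4.

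The smaller lists were those of other lineages and of general functions. The trophoblast factors kept 13 of 19 peaks (68.4%) and gained none, with Tfap2c keeping 5 of 6 and Gata3 losing 2 of 3. The primitive endoderm factors kept 4 of 8 and gained 4, and Gata4 alone lost 2 and gained 2. The p53 and senescence genes kept 9 of 16, and Trp53 lost 2 and gained 1 peak. The blood and endothelial genes kept 8 of 12, of which 6 were near Cd34, and the keratinocyte genes kept 4 of 6. The broadly expressed genes kept 18 of 25 (72.0%, 50.6 to 87.9). Actb, the cytoplasmic actin gene, had 5 day 6 peaks, lost none and had 8 on day 9.

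**Figure D5:**
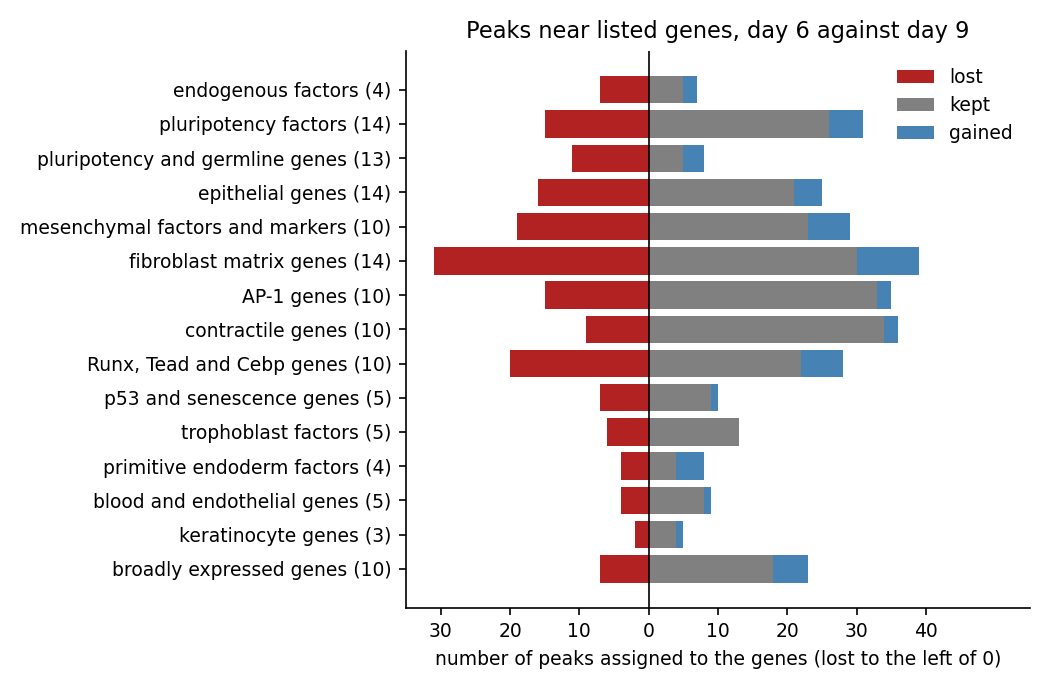
Number of day 6 peaks lost (red, left of 0) and kept (grey) and of day 9 peaks gained (blue) assigned to the genes of each list, with the number of genes in brackets. The fibroblast matrix genes have the largest count of lost peaks, 31 beside 30 kept, and the contractile genes have 9 lost beside 34 kept.

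Among all genes, the 10 with the largest excess of lost over gained peaks were Zmiz1, Tns3, Ets1, Cops8, Bcor, Tead4, Rmi2, Tpd52, Zcchc2 and Rab4a. Zmiz1, which encodes a co-regulator of the PIAS type, went from 14 peaks to 4, with 9 lost and none gained. Tns3, which encodes the focal adhesion protein tensin 3, went from 14 to 7, Ets1, a mesenchymal and lymphoid Ets factor gene, from 13 to 5, and Bcor, a Polycomb-associated co-repressor gene, from 11 to 4. These losses were smaller at equal numbers, where Zmiz1 lost 3 peaks, Tns3 4, Ets1 2, Bcor 5, Tpd52 2 and Tead4 1. The 10 genes with the largest excess of gained peaks were Slc19a1, Col17a1, C1qtnf7, Sh3rf2, Atp5g2, Retreg1, Osbp2, Psap, Tnfrsf19 and Gm19684. Slc19a1, the reduced folate carrier gene, went from 3 to 7 peaks, and had 7 on day 0. Col17a1, the gene of a hemidesmosome collagen of epithelia, went from 1 to 5, with 5 on day 0. These genes were ranked by the counts given, which are therefore a description.

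The 10 widest lost peaks were 780 to 1065 bp wide. The widest lay inside Auts2 (chr5:131537898-131538962) and was also open on days 0, 1 and 3 and in ESCs. Of the 10, those of Usp13 (903 bp), Brk1 (829 bp), Il15 (813 bp), Itsn2 with Gm3625 (808 bp) and Zfp770 (780 bp) lay within 1000 bp of a TSS. Those of Hs3st4, Sema6b and Sema5a were intronic, and the 798-bp peak assigned to Acsl1 was intergenic and held an AP-1 match. The 10 widest gained peaks were 633 to 699 bp wide, and 1 of them, at Pcnx (640 bp, with a CTCF match), lay at a promoter. The widest, 65417 bp from the TSS of Dpp6 (chr5:26751437-26752135), was seen on day 9 alone. The next, assigned to Boc (669 bp) and Mertk (666 bp), had been open earlier, on days 0 and 1 for Boc and on days 1 to 3 for Mertk. Of the 10 gained peaks, 5 were open in ESCs, assigned to Hsbp1 within Cdh13, Itprid1, Dgkb, Pcnx and Adamtsl1. Of the 10 lost peaks, those of Auts2, Usp13, Brk1 and Itsn2 with Gm3625 were also open in ESCs. With peaks of at least 300 bp on both days, the ESC share was 22.1% for gained and 19.8% for lost peaks.

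The late step was set beside the steps before and after it at 27074 peaks per list, the widest of each, which is the length of the ESC list. The share of peaks kept was 74.0% from day 3 to day 6 (73.4 to 74.5), 74.3% from day 6 to day 9 (73.8 to 74.8) and 46.4% from day 9 to ESCs (45.8 to 47.0). Distal peaks were kept in 64.6%, 65.5% and 26.1% of cases and proximal peaks in 93.0%, 90.5% and 82.2%. The late step thus kept a similar share of distal peaks to the step before it and a smaller share of proximal peaks. Counted from the later day the proximal order was the opposite. There, 87.1% of proximal peaks (86.4 to 87.7) were already open at the earlier step and 90.9% (90.3 to 91.4) at the late step. With all peaks the shares of peaks kept were 68.4%, 59.8% and 40.5%, which moves with the number of peaks called. Of the peaks gained, 20.2% (19.2 to 21.1) were open in ESCs at the step from day 3 to day 6, and 17.7% (16.8 to 18.7) at the step from day 6 to day 9. The AP-1 motif was found in 27.7% of distal lost peaks (26.6 to 28.8), 22.8% of kept and 13.3% of gained peaks at the earlier step, and in 20.1% (19.1 to 21.2), 18.1% and 10.8% (9.97 to 11.6) at the late step. The distal gained peaks were wider at the earlier step (median 426 bp) than at the late step (273 bp), as were the distal lost peaks (459 against 417 bp), and day 6 peaks with an AP-1 match were wider than those without, so the shares of the 2 steps are not matched for width. The steps also share the day 6 library, so their values are given side by side. With 1 library per day, a difference between days and a difference between libraries cannot be told apart.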

How the data were processed

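ATAC-seq was measured in 7 mouse libraries, 1 per group, of which day 6 and day 9 of doxycycline were compared. Per the labels and the paper's methods, the authors prepared libraries from 50000 cells, used Trimmomatic to cut reads to 50 bp, Bowtie2 to align them to mm10 and Picard to drop duplicates and to bring every sample to a common depth, and called peaks per library with MACS2 (no model, extension 200, shift 100 bp upstream, q-value cut-off 0.05). Versions of these tools and the read depth are not given in the sources used here. The deposited files give peak coordinates alone and no score, so no interval from reads could be given.

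Overlaps of 1 bp were computed in Python 3.11.15 and checked against BEDTools 2.31.1, which gave the same 26824 kept peaks, and the code was tested on simulated data. TSS, exons and introns came from GENCODE M21, and motifs were counted in the central 200 bp of peaks on chromosomes 1 to 19, X and Y (GRCm38.p6). Peaks were assigned to the protein-coding gene with the nearest TSS within 100 kb. Libraries were grouped by time-point from the labels. Members of the fixed lists were named with values where a peak was lost or gained, besides the 10 genes with the largest excess of lost or gained peaks and the 10 widest lost and gained peaks, and a few members that kept all peaks or had none were named for completeness. Sequences are those of the widest such peaks near listed genes, and some items are not reported here. No p-value was computed, since 1 library per day allows none. Alternatives were the overlap, a minimum width of 300 bp, equal numbers of widest peaks, chromosomes, TSS definition, motif window and gene assignment. The members and lists were chosen with earlier results of these data known.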

Additional observations from a re-analysis of the deposited data

How the results depend on the processing

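No paired analysis was possible because the groups compared hold a single library each, which also leaves no library to drop. In the values that follow, shares of classes are in the order lost, kept, gained. With the same number of widest peaks, 9251 peaks were lost, 72.0% of day 6 peaks were kept and 75.0% of day 9 peaks were already open on day 6. The TSS-proximal share of lost and kept peaks was then 12.2% and 39.2%, the ESC share was 12.0%, 50.6% and 13.4%, and the day 0 share was 47.7%, 74.2% and 39.3%. With an overlap of 50% of both peaks, 13225 peaks were gained, 44.1% were kept and 59.9% were already open, the TSS-proximal share was 14.0%, 40.9% and 18.4%, the ESC share 14.9%, 53.4% and 21.2%, and the day 0 share 48.9%, 75.0% and 49.9%, so that gained peaks no longer had fewer day 0 peaks than lost peaks. With peaks of at least 300 bp on both days, 9435 were lost and 2800 gained, 63.8% were kept and 85.6% already open, the median width was 460 bp for lost and 409 bp for gained peaks, the TSS-proximal share was 16.2%, 47.2% and 16.2%, the ESC share 19.8%, 61.6% and 22.1%, and the day 0 share 57.5%, 79.4% and 49.4%. Counting a peak within 500 bp gave 65.2% kept and 86.8% already open. A distance of 2500 bp to the TSS made the proximal share 13.1%, 38.8% and 12.7%, and the TSS of all annotated genes 14.0%, 40.6% and 14.0%. Chromosomes 1 to 19, X and Y alone changed none of the 4 overlap results beyond counting error. The number of motifs whose intervals for lost and gained peaks did not overlap was 1 of 20 as reported, 4 with the same number of widest peaks (AP-1, octamer, Runx and the CArG box), 4 with the whole peak searched (AP-1, E-box, Runx and Cebp) and 4 with the 50% overlap, and AP-1 was higher in lost peaks under every alternative run. Lost peaks were wider than gained peaks at equal numbers (median 313 against 216 bp) and with all peaks (228 against 211 bp). A search of the whole peak covers more sequence in wider peaks, so these motif counts are not matched for width. The listed genes kept 66.8% of peaks within the gene body and 10 kb of it, and 70.6% with the same number of widest peaks. The share kept from day 6 to day 9 was 0.34 percentage points above that from day 3 to day 6 at equal numbers, and -8.56 points from it with all peaks, an alternative chosen after seeing the data. That reversal followed from the construction of the lists, which differ in length when all peaks are used. With no score in the files, depth and a stricter peak threshold could not be examined other than by width.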
